A study of Homo sapiens with 4 samples.

Results

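The transcripts described here are 44 genes of G2 and mitosis, read by Ensembl identifier from a table of 63677 genes. They were chosen by symbol for their roles in mitotic entry, the spindle checkpoint, the kinetochore, the spindle, cytokinesis and chromosome structure, and the rule itself uses no measured value. RNA was sequenced from HCT116, an established human colorectal cancer cell line, after transfection with an antisense oligonucleotide (ASO) against tandem GAA repeats or with a scrambled control ASO, with 2 libraries per ASO and no untreated library. According to the labels the transfection lasted 48 h, the cells were grown in RPMI medium and the libraries came from total RNA, whereas the study's methods name a stranded mRNA kit and a shorter transfection. The anti-GAA ASO pairs with GAA repeats in RNA and directs RNaseH to cut them, and the comparison asks which RNAs differ in level when such transcripts are targeted. Libraries of the 2 ASOs share the replicate numbers 1 and 2, and nothing in the labels says what a shared number stands for or whether the replicates are separate cultures, so p-values measure only the spread between these libraries.

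Cells pass from G2 into mitosis when CDK1 bound to cyclin B becomes active. The kinases PLK1 and Aurora A assist this step, and the CDC25 phosphatases remove the phosphates that hold CDK1 back. Kinetochores then attach chromosomes to the spindle, and unattached kinetochores keep the anaphase-promoting complex (APC/C) silent through the MAD and BUB proteins. When CDC20 activates the APC/C, cyclin B and securin are destroyed, the chromatids part and a contractile ring divides the cell. Most of these transcripts are made in G2 and mitosis under FOXM1, MYBL2 and the MuvB complex, and as a set they are widely used as markers of proliferation.

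Because the ASO is a repeat of TTC, the stretches of the members most like its target are shown first. The sites below are 30 bases of the longest GENCODE 44 transcript, 5′ to 3′ on the RNA strand and written as DNA, with the longest perfect GAA run, in any frame, in capitals. The 4 members with a run of at least 12 bases come first, all inside coding sequence, and ECT2 and HMMR follow because they had the smallest p-values.
CDCA8: ggaagagGAAGAAGAAGAAGAAaatgaacg
INCENP: actggaggAGAAGAAGAAGAAGgaagagca
KNL1: gtgggtacAAGAAGAAGAAGAtattcataa
TOP2A: tgatgttgtGAAGAAGAAGAAcaagggtgg
ECT2: cttcatatgtAGAAGAAGAgatgcctcaga
HMMR: aaatggtaaccAGAAGAAtttgagaattct
In GRCh38 the CDCA8 run of 15 bases is at chr1:37700477-37700491 on the plus strand, in exon 5. The INCENP run of 14 bases is at chr11:62148541-62148554 on the plus strand, in exon 16. The KNL1 run of 13 bases is at chr15:40625561-40625573 on the plus strand, in exon 11. The TOP2A run of 12 bases is at chr17:40411385-40411396 on the minus strand, in exon 9. The ECT2 run of 9 bases is formed only after splicing, since it starts in exon 3 at chr3:172754656 and ends in the next exon at chr3:172755298. The HMMR run of 7 bases is at chr5:163471204-163471210, in exon 6.

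Total counts per library were between 10538284 and 17894953, the lowest being anti-GAA replicate 1, and 15116 genes had enough counts to be tested. Of the 44 members, 43 were tested. The exception was TTK, the checkpoint kinase MPS1, with 5 and 6 counts under the anti-GAA ASO and 10 and 5 under the control ASO. Levels are given as CPM, reads of a gene relative to the library total, scaled by TMM, a normalization that assumes most genes are alike between libraries. Markers of the line were present, with EPCAM at 628 to 740 CPM, and the summed level of 6 epithelial markers was 2607 and 2940 CPM with anti-GAA against 2717 and 2954 CPM with control. KRT19 made up a large share of that sum, at 1330 and 1640 CPM against 1110 and 1370 CPM. The other 5 were below 0 on the log2 scale without overlap between the groups, beside 16.9% of all tested genes. Among them was EPCAM, at 641 and 628 CPM against 740 and 729 CPM. The median over the 6 markers was −0.256, and 0 passed the test. Of 6 fibroblast markers only COL1A1 was tested, at 10.1 to 14.6 CPM. The other fibroblast markers were at 0 to 0.177 CPM, 5 leukocyte markers at 0 to 0.587 CPM and 4 endothelial markers at 0 to 0.767 CPM.

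Levels of the members spanned a wide range. Per kilobase of the reference (MANE) transcript, the mean level over the 4 libraries was highest for PTTG1 (372 CPM per kb), which encodes securin. It was 180 CPM per kb for UBE2C, an E2 enzyme of the APC/C, and 154 CPM per kb for CCNB1, cyclin B1. The lowest values belonged to TTK, at 0.151 CPM per kb, and to the kinetochore scaffold KNL1, at 0.219 CPM per kb. FOXM1, the transcription factor of this gene group, had 0.548 CPM per kb. Summed over the 43 tested members, the level was 4907 and 4602 CPM in anti-GAA replicates 1 and 2. It was 5140 and 4239 CPM in control replicates 1 and 2, so the anti-GAA libraries lay between the control libraries.

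The G2 and mitosis genes were split in direction, and no test of the list as a set was run. Of the 43 tested, 22 had a log2 fold change (anti-GAA over control) below 0 and 21 above 0, with a median of −0.012 and a range from −0.96 to 0.33, beside a median of 0.013 over all tested genes. With edgeR's quasi-likelihood test and Benjamini-Hochberg adjustment, 0 members passed an adjusted p of 0.05, and the share of all tested genes called in either direction was 0%. Before adjustment, p was under 0.05 for 2 members on the lower side and 0 on the higher side, against 3.46% and 1.02% of all tested genes. DESeq2 on the same counts called 0 members, with 0.0331% of all tested genes called. Its unadjusted p was under 0.05 for 2 members on the lower side, ECT2 and HMMR, and 0 on the higher side. Over all 15116 tested genes this held for 317 on the lower side and 100 on the higher side. In bulk RNA, fewer cells in G2 and mitosis and less of an RNA per cell cannot be told apart.

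ECT2, the exchange factor that activates RhoA at the cell equator and so sets the cleavage furrow, gave the smallest p-value of the members. It was measured at 16.4 and 15.3 CPM with the anti-GAA ASO and at 33.2 and 28.4 CPM with the control ASO. Both anti-GAA libraries lay well under both control libraries. The log2 fold change was −0.96 (SE 0.22, 95% interval −1.47 to −0.44), a ratio of 0.514, with an adjusted p of 0.686 in edgeR's quasi-likelihood test over all tested genes. The gene lies at chr3:172750682-172821474 of GRCh38, on the plus strand.

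HMMR, a microtubule-binding protein that helps to place and build the spindle and is also known as a hyaluronan receptor, was the other member with p under 0.05 before adjustment. It was measured at 31.1 and 22.2 CPM with anti-GAA and at 53.3 and 41.6 CPM with control. The 2 groups did not overlap. The log2 fold change was −0.84 (SE 0.26, 95% interval −1.44 to −0.23), a ratio of 0.561, with an adjusted p of 0.964 in the same edgeR test. The gene lies at chr5:163460203-163491941 on the plus strand and overlaps the antisense gene HMMR-AS1, and the sources used here do not say whether reads were counted by strand.

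The groups did not overlap for either gene, so both pairs by number were bound to be below 0. The same holds for the fits without a library, and these directions are not separate results. For ECT2 the difference in log2 CPM was −1.01 in replicate 1 and −0.88 in replicate 2, and for HMMR it was −0.77 and −0.90. With a library left out, the log2 fold change ranged from −1.06 to −0.85 for ECT2 and from −1.09 to −0.60 for HMMR. When the replicate number was fitted as a block in edgeR, ECT2 passed at an adjusted p of 0.00975 (log2 fold change −0.95, SE 0.16) and HMMR at an adjusted p of 0.0122 (−0.84, SE 0.15). These were the 2 of 43 members called lower in that fit, with 0 called higher, where 1.37% of all tested genes were called lower and 0.337% higher. Before adjustment, the blocked fit gave p under 0.05 for 7 members on the lower side (CENPE, HMMR, DLGAP5, CKAP2, ANLN, ECT2 and TOP2A) and 2 on the higher side (CDC20 and PRC1), against 9.7% and 6.86% of all tested genes. Both calls therefore rest on the use of the replicate number, whose meaning the labels do not give.

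**Figure D1:**
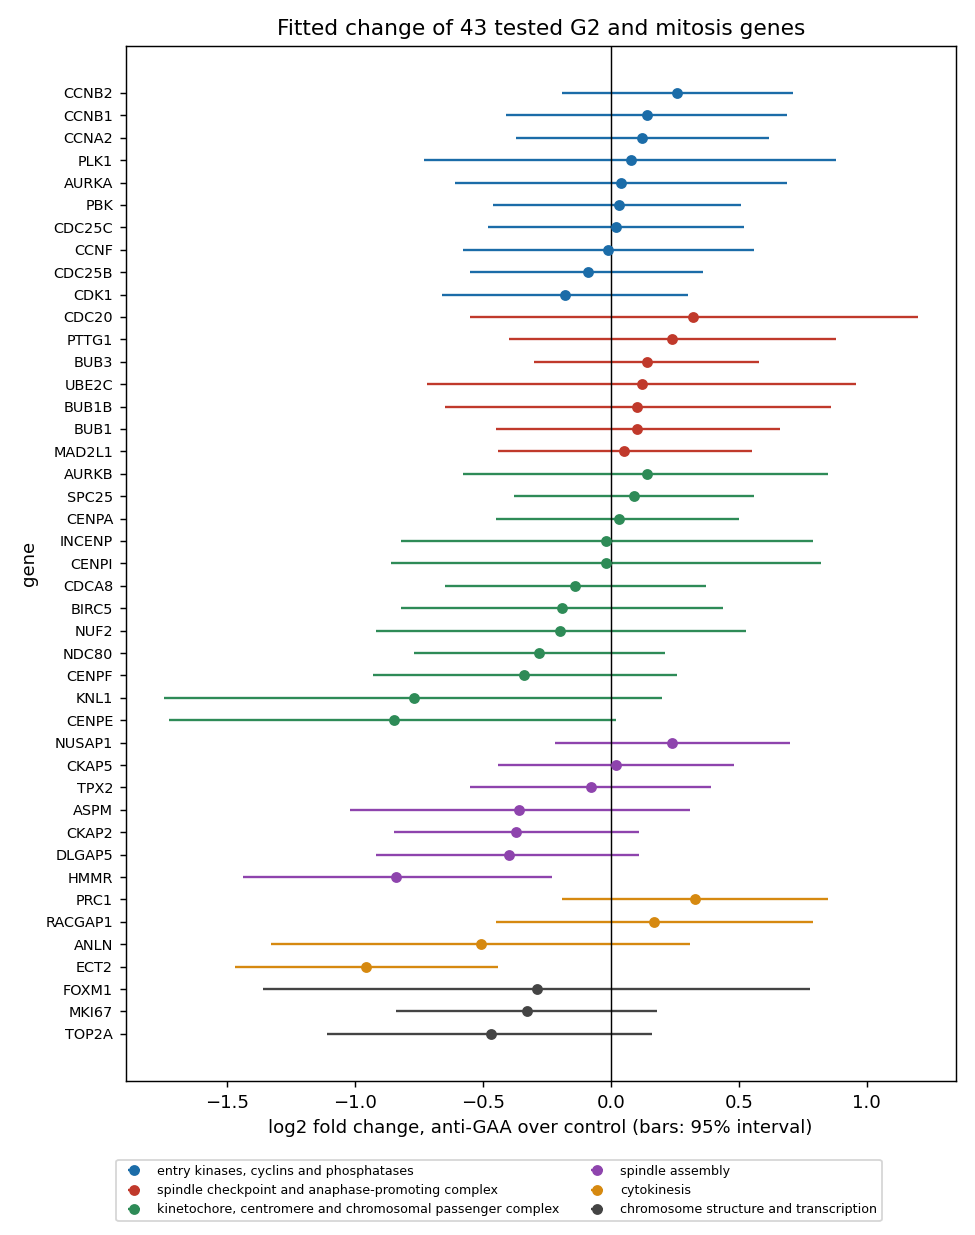
Log2 fold change of each of the 43 tested members, anti-GAA over control, with bars for the 95% interval of the edgeR fit without the replicate block and colours for the 6 classes. The intervals of ECT2 and HMMR stop short of 0, and all 7 checkpoint and APC/C genes sit to the right of 0 with intervals that cross it.

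Among the 10 kinases, cyclins and phosphatases of mitotic entry, 3 had a fold change below 0 and 7 above, and 0 passed the test. Their median was 0.033 on the log2 scale, and −0.057 when libraries were scaled to total counts. It was 0.199 without control replicate 1 and −0.077 without control replicate 2, so its sign depends on the scaling and on single libraries. CDK1, the kinase that drives mitotic entry, was at 172 and 215 CPM with anti-GAA and at 218 and 221 CPM with control. Its groups did not overlap, but anti-GAA replicate 2 lay close to the controls. The log2 fold change was −0.18 (95% interval −0.66 to 0.30). CCNB1, cyclin B1, was at 323 and 332 CPM with anti-GAA and at 352 and 242 CPM with control. The control libraries enclosed the anti-GAA libraries, and the interval of the log2 fold change ran from −0.41 to 0.69.

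CCNB2, cyclin B2, was at 151 and 172 CPM with anti-GAA and at 137 and 134 CPM with control, a log2 fold change of 0.26 (95% interval −0.19 to 0.71). It was the entry gene with the smallest p-value on the higher side (adjusted p = 0.996, edgeR), and its groups did not overlap. PLK1, the Polo kinase, was at 31.8 and 17.5 CPM with anti-GAA and at 27.5 and 19.0 CPM with control. For PLK1 the replicates of each ASO differed far more than the ASOs did, and the log2 fold change of 0.08 had an interval from −0.73 to 0.88. The remaining 6 were CCNA2 (cyclin A2), CCNF (the F-box protein cyclin F), CDC25B, CDC25C, AURKA (Aurora A) and PBK (a mitotic kinase), with log2 fold changes from −0.09 to 0.12.

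The 7 tested genes of the spindle checkpoint and the APC/C all had a fold change above 0, from 0.05 to 0.32, and 0 passed the test. Their median was 0.118. The median size of their change between the 2 control replicates was 0.617, an unlike measure because it compares single libraries. PTTG1, the securin that holds separase inactive, was at 328 and 248 CPM with anti-GAA and at 295 and 193 CPM with control. In each group replicate 2 was the lower library, and the log2 fold change was 0.24 (95% interval −0.40 to 0.88). CDC20, the activator of the APC/C, was at 264 and 157 CPM with anti-GAA and at 221 and 116 CPM with control, with a log2 fold change of 0.32 (95% interval −0.55 to 1.2). BUB3, a checkpoint protein that brings BUB1 and BUB1B to kinetochores, was at 517 and 535 CPM against 496 and 457 CPM, the single gene of this class whose groups did not overlap. BUB1, BUB1B, MAD2L1 and UBE2C had log2 fold changes from 0.05 to 0.12. The class median was 0.572 without control replicate 1 and −0.063 without control replicate 2.

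Of the 12 kinetochore, centromere and chromosomal passenger genes, 9 had a fold change below 0, and 0 passed the test. The class median was −0.164, and −0.058 without control replicate 1. CENPE, the kinesin that carries chromosomes towards the spindle equator, was at 4.34 and 3.43 CPM with anti-GAA and at 5.35 and 8.61 CPM with control. The groups did not overlap, but the controls differed among themselves, and the log2 fold change of −0.85 (SE 0.37) had an adjusted p of 0.996 in edgeR and became −0.46 without control replicate 2. KNL1, the scaffold on which BUB1 and BUB3 assemble, had 12 and 31 counts, or 1.21 and 1.74 CPM, with anti-GAA. With control it had 41 and 42 counts, or 2.67 and 2.48 CPM. Both anti-GAA libraries were lower, and the log2 fold change of −0.77 (SE 0.41) had an interval from −1.75 to 0.20.

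The Ndc80 complex, which binds microtubules at the kinetochore, was represented by NDC80, NUF2 and SPC25. NDC80 was at 42.7 and 39.6 CPM with anti-GAA and at 54.0 and 46.1 CPM with control, without overlap, and its log2 fold change of −0.28 had an interval from −0.77 to 0.21. NUF2 and SPC25 stood at −0.20 and 0.09. Within the chromosomal passenger complex, which corrects wrong attachments, the kinase AURKB was at 146 and 97.9 CPM with anti-GAA and at 136 and 85.3 CPM with control. Its scaffold INCENP was at 8.99 and 6.18 CPM against 9.0 and 6.25 CPM, nearly the same level in each replicate number. CDCA8, borealin, was at 73.4 and 78.2 CPM against 94.4 and 72.5 CPM. The log2 fold changes were 0.14 (95% interval −0.58 to 0.85) for AURKB, −0.02 (−0.82 to 0.79) for INCENP and −0.14 (−0.65 to 0.37) for CDCA8, and BIRC5, survivin, was at −0.19. The centromere genes CENPA, CENPF and CENPI were at 0.03, −0.34 and −0.02.

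Of the 7 spindle assembly genes, 5 had a fold change below 0, and 0 passed the test without the replicate block. Their median of −0.355 became −0.169 with offsets that remove the trend of each library on transcript length and GC content. Without anti-GAA replicate 1 the median was −0.233. On the lower side the groups did not overlap for 4 of the 7, HMMR, ASPM, DLGAP5 and CKAP2, beside 16.9% of all tested genes. On the higher side this held for 1, beside 15.5%. ASPM, a protein of the spindle poles, was at 6.16 and 7.19 CPM with anti-GAA and at 8.41 and 8.73 CPM with control. DLGAP5, which stabilizes kinetochore fibres, was at 26.8 and 34.1 CPM against 39.6 and 41.0 CPM. CKAP2, a spindle-associated microtubule protein, was at 40.3 and 37.5 CPM against 53.8 and 46.7 CPM. The log2 fold changes of these 3 were −0.36, −0.40 and −0.37.

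NUSAP1, which bundles microtubules around chromosomes, went the other way, with 143 and 162 CPM with anti-GAA and 136 and 122 CPM with control. Its log2 fold change was 0.24 (95% interval −0.22 to 0.70). The gene overlaps 1 coding gene on the same strand and the coding gene OIP5 on the opposite strand. TPX2, the activator of Aurora A, and CKAP5, a microtubule polymerase, were at −0.08 and 0.02.

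The 4 cytokinesis genes split, with a median of −0.172 that became 0.261 without control replicate 1, and 0 passed the test without the replicate block. ECT2 and ANLN, the ring scaffold anillin, were below 0, and PRC1 and RACGAP1 were above. ANLN was at 38.5 and 26.7 CPM with anti-GAA and at 60.6 and 32.2 CPM with control, which overlap, and its log2 fold change was −0.51 (95% interval −1.33 to 0.31). PRC1, which bundles the microtubules of the midzone, was at 225 and 186 CPM with anti-GAA and at 184 and 143 CPM with control. Its groups did not overlap, and the log2 fold change of 0.33 was the highest of all members (95% interval −0.19 to 0.85, adjusted p = 0.996, edgeR). PRC1 shares part of its locus with a coding gene on the same strand. RACGAP1, the partner through which ECT2 is brought to the midzone, was at 105 and 122 CPM against 124 and 78.5 CPM, a log2 fold change of 0.17 (95% interval −0.45 to 0.79).

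All 3 genes of chromosome structure and transcription had a fold change below 0, and 0 passed the test. Their median of −0.326 was −0.585 without anti-GAA replicate 1 and −0.199 without anti-GAA replicate 2. TOP2A, the topoisomerase that untangles sister chromatids, was at 79.4 and 55.5 CPM with anti-GAA and at 109 and 78.1 CPM with control. The log2 fold change was −0.47 (95% interval −1.11 to 0.16), with −0.46 in replicate 1 and −0.49 in replicate 2. It was −0.22 without control replicate 1, −0.23 without anti-GAA replicate 2 and −0.75 without anti-GAA replicate 1. MKI67, the coat protein of mitotic chromosomes used as a proliferation marker, was at 240 and 201 CPM with anti-GAA and at 244 and 309 CPM with control, a log2 fold change of −0.33 (95% interval −0.84 to 0.18). Its groups did not overlap, but its difference was −0.02 in replicate 1 and −0.62 in replicate 2, so it came from a single pair. FOXM1 had 21 and 25 counts against 39 and 29, a log2 fold change of −0.29 with an interval from −1.36 to 0.78, and overlaps the coding genes ITFG2 and RHNO1 on the opposite strand.

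Within the replicate numbers, 16 of the 43 members were lower with anti-GAA in both pairs, 8 were higher in both and 19 differed in sign. Of all 15116 tested genes, 4540 were lower in both pairs, 4802 were higher in both and 5773 differed in sign. The median difference in log2 CPM was −0.122 in replicate 1 and 0.038 in replicate 2. The median of the checkpoint and APC/C genes was −0.082 in replicate 1 and 0.365 in replicate 2, and that of the cytokinesis genes −0.446 and 0.054. BUB1B, RACGAP1 and UBE2C were below 0 in replicate 1, at −0.25, −0.24 and −0.19, and above 0 in replicate 2, at 0.61, 0.64 and 0.61. Groups did not overlap, on the lower side, for 10 members (23.3%), beside 16.9% of all tested genes, and on the higher side for 4 members (9.3%), beside 15.5%.

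Libraries with the same ASO also differed from each other in these genes. From control replicate 1 to control replicate 2, CDC20 went from 221 to 116 CPM, UBE2C from 183 to 85.3 CPM and BUB1B from 52.9 to 27.6 CPM. The median difference between the control replicates was −0.229 over the members and 0.001 over all tested genes. Replicate 2 was lower than replicate 1 under both ASOs for 20 members (46.5%), against 33.8% of all tested genes. The median size of the fitted ASO effect was 0.169 on the log2 scale for the members and 0.208 over all tested genes. That of the difference between the control replicates was 0.342 and 0.317. The fit pools 2 libraries per ASO while the replicate difference compares single libraries, so the 2 sizes are unlike measures.

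**Figure D2:**
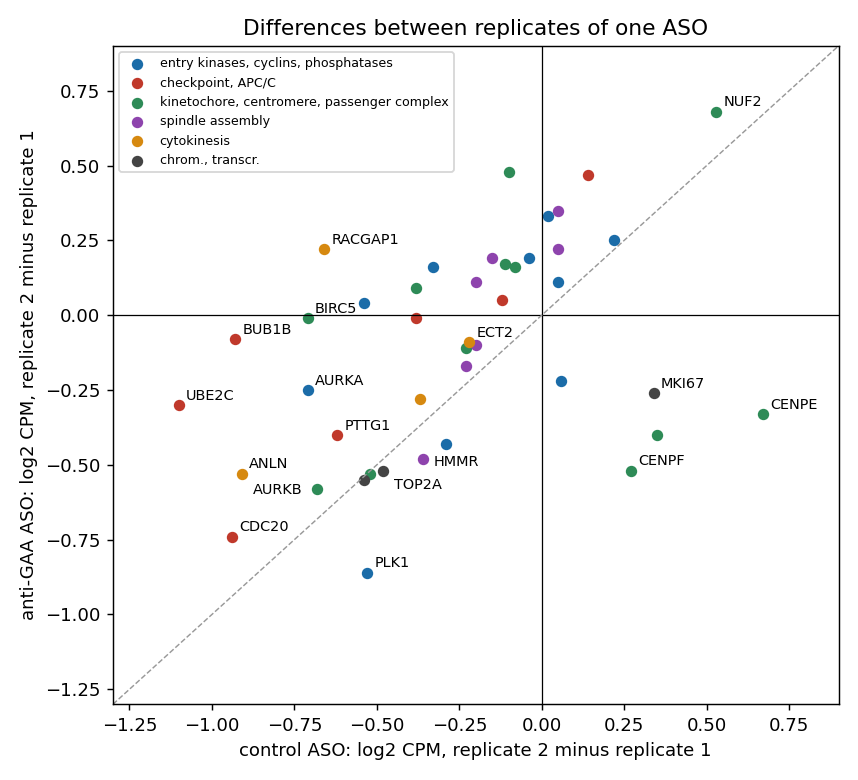
Difference in log2 CPM between replicate 2 and replicate 1, with the control ASO (horizontal) and with the anti-GAA ASO (vertical), for the 43 tested members, coloured by class, with the dashed line marking equal values. CDC20, ANLN, AURKB and PLK1 lie low on both axes, and CENPE, CENPF and MKI67 are higher in control replicate 2 and lower in anti-GAA replicate 2.

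CDCA8 and INCENP, with runs of 15 and 14 bases, had log2 fold changes of −0.14 and −0.02, whereas KNL1 and TOP2A, with 13 and 12 bases, stood at −0.77 and −0.47. ECT2 and HMMR, at −0.96 and −0.84, hold runs of 9 and 7 bases. The 25 members with runs under 9 bases had a median of 0.03, as did all 11786 tested genes of that class. The 14 members with runs of 9 to 11 bases had a median of −0.18, beside −0.037 for 2591 genes, and the 3 members with 12 to 14 bases a median of −0.47, beside −0.107 for 280 genes. CDCA8 was the single member in the class of 15 to 17 bases, where 70 tested genes had a median of −0.435. Allowing mismatches, the best 21-base match to the repeat held 20 bases in CDCA8, 18 in INCENP and TOP2A, 16 in ECT2 and HMMR and 15 in KNL1. This search was added after the data had been seen. The 18 members with at least 16 of 21 bases, a cut ECT2 and HMMR just reach, had a median of −0.30 and 14 below 0. All tested genes with such a match had a median of −0.04 and 56.0% below 0. At 15 or more the 28 members had a median of −0.12, beside −0.02. At 17 or more the 9 members had a median of −0.14, beside −0.08, and at 18 or more the 3 members −0.14, beside −0.13. Over the gene body with introns, TPX2 also reached a run of 12 bases.

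Transcript length moved with the differences. Across the 43 members, Spearman's rho between the length of the longest transcript and the log2 fold change was −0.43, and −0.29 after the offsets for length and GC content, while across all tested genes with a transcript it was −0.13 and −0.01. Genes are not independent replicates and share the same 4 libraries, so these values are descriptions. The 7 members of at least 7000 bases had a median of −0.34 without and −0.19 with the offsets, and the 36 shorter members 0.02 and 0.05. Among all tested genes, 1852 of at least 7000 bases had a median of −0.07 without the offsets, with 59.1% below 0. The 12899 shorter genes had a median of 0.02, with 46.8% below 0. ECT2 and HMMR stood at −0.87 and −0.74 with the offsets. The part of length in these differences was not tested beyond this.

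Many promoters of the members hold sequences that the choice did not use. In RefSeq promoters (GRCh38.p14, 250 bases before to 50 after the start), 34 members matched, with 44 promoters. Members with several promoters count more than 1 time, and the members without a match are not described. TTTGAA or TTCGAA, forms of the cell cycle genes homology region bound by the MuvB complex, was present on either strand in 30 of the 44 (68.2%), against 16.4% of 35116 promoters. CCAAT, the box bound by NF-Y, was present in 32 (72.7%) against 34.6%, and both in 25 (56.8%) against 6.38%. The promoters of CENPE, CENPI and CKAP2 held neither motif. A match is a description and not a bound site. The stretches below come from CCNB2, from PRC1 with the highest fold change, and from HMMR and ECT2 with the smallest p-values. They are written 5′ to 3′ on the strand of the gene, with matches to either motif in capitals.
CCNB2: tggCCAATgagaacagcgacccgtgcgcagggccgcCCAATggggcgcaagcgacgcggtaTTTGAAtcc
PRC1: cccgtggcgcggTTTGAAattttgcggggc
HMMR: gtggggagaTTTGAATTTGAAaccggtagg
ECT2: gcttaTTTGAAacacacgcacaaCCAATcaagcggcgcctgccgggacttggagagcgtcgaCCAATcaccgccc
They lie at chr15:59105056-59105125 (plus strand), chr15:90994538-90994567 (minus), chr5:163460595-163460624 (plus) and chr3:172750606-172750680 (plus). PRC1 and HMMR, whose fold changes had opposite signs, both hold TTTGAA close before the start, and HMMR holds it 2 times in a row. Their stretches are shorter and leave out CCAAT further upstream, with 1 match in the PRC1 promoter and 5 in that of HMMR.

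Other genes of the same processes gave a like picture. Of 113 further genes of mitotic entry, the APC/C, the kinetochore, the spindle, cytokinesis and the MuvB factors, 112 were tested, 60 had a fold change below 0 and 0 passed the test. Their median was −0.027, and their largest difference was in KIF20B, a kinesin of cytokinesis, at 1.62 and 0.618 CPM with anti-GAA and 3.0 and 2.65 CPM with control (log2 fold change −1.41, SE 0.53, adjusted p = 0.996, edgeR). It had 16 and 11 counts with anti-GAA against 46 and 45, holds a GAA run of 17 bases, and its log2 fold change ranged from −2.17 to −0.80 with a library left out. The median was 0.098 for 18 mitotic entry regulators, 0.067 for 17 APC/C genes, −0.042 for 35 kinetochore and centromere genes, −0.092 for 30 spindle and cytokinesis genes and 0.007 for the 12 tested MuvB and related factors.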

How the data were processed

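Raw counts per gene were deposited by the authors. Per the study's methods and processing notes, reads were trimmed, STAR was used for alignment to hg19 (GRCh37), GL contigs were discarded, and featureCounts assigned reads to Ensembl genes. Which Ensembl release was used, whether strand was counted and how multiply matching reads were handled are not given in the sources used here. Of the 44 members, 4 overlap a coding gene on the same strand, 10 overlap a coding gene on the opposite strand and 13 have pseudogene copies, so some of their reads may be split or shared. Groups were taken from the labels (2 libraries each), with 0 per-sample columns unused.

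Genes kept by filterByExpr (15116 of 63677) were normalized by TMM and tested in R 4.3.3 with edgeR 4.0.16 (quasi-likelihood F-test, ASO as the only term), with Benjamini-Hochberg adjustment over all tested genes and a threshold of 0.05. The dispersion was estimated over all genes, and intervals are 95% intervals of that fit. Differences by pair are in log2 CPM (prior count 2). DESeq2 1.42.0, other scalings and filters, a replicate block, fits without each library, and offsets for transcript length and GC content (mgcv 1.9.3) were alternatives. The scripts were tested on simulated counts. Symbols, positions and transcripts came from GENCODE 44 (GRCh38), joined by Ensembl identifier with 52181 of 63677 genes matched, and no position was carried over from hg19.

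The members and gene lists were chosen with earlier results of these data known. Values in every library were printed for members past an adjusted p of 0.05 in any of the 3 fits or an unadjusted p of 0.05 in edgeR, for the member of each class with the smallest p in each direction, for CDK1, CCNB1, PLK1, AURKB, TOP2A and MKI67, and for those with a GAA run of at least 12 bases. NDC80, ASPM, DLGAP5, CKAP2, ANLN, BUB3, CDC20, RACGAP1, FOXM1, UBE2C and BUB1B were added after their values had been seen. Genes of the further lists were named at an unadjusted p under 0.05, or an adjusted p under 0.05 with the block. Of the ASO, only its repeat unit and its length of 21 bases entered the search, its full sequence is not printed, and proteins were not used here.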

Additional observations from a re-analysis of the deposited data

How the results depend on the processing

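Each ASO had only 2 libraries, so a gene that did not pass is not shown to be unchanged. Over all tested genes the fitted log2 fold change ranged from −7.34 to 3.25. Among all tested genes, edgeR called 0 lower and 0 higher (523 and 154 before adjustment), DESeq2 called 5 lower and 0 higher, and edgeR without a filter on low counts called 111 lower and 5 higher. The replicate block gave 207 lower and 51 higher, and the block with length and GC offsets 193 and 101. Same-numbered libraries deviated together (correlation 0.564), and the component with 52.7% of the variance separated the replicate numbers, with 2 pairs and no label behind it. Of the members, the replicate block called 2 lower with or without the offsets, and each of the other 10 alternatives called 0. Why these counts differ was not tested.

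Leaving out each library in turn gave 0 to 16 lower and 0 to 3 higher genes overall. The median log2 fold change then ranged from −0.153 to 0.055 for the members, from −0.018 to 0.023 for all tested genes, from −0.077 to 0.199 for entry genes, from −0.063 to 0.572 for checkpoint and APC/C genes, from −0.217 to −0.058 for kinetochore genes and from −0.321 to −0.233 for spindle genes. It ranged from −0.503 to 0.261 for cytokinesis genes, from −0.585 to −0.199 for chromosome genes, from −0.088 to 0.083 for the further G2 and mitosis genes and from 0.012 to 0.191 for G1 and S phase genes.

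The median of all tested genes was −0.081 with total counts, 0.057 with the offsets and 0.058 with block and offsets. Total counts gave −0.057 for entry genes, −0.120 for the further G2 and mitosis genes and 0.041 for G1 and S phase genes, and the offsets gave −0.169 for spindle genes in both fits.

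Of 192 values of the 16 members named by rule under 12 alternatives, 176 kept their direction and side of the threshold, 4 passed it and 12, in 6 members, changed sign. Without control replicate 2, the log2 fold change was −0.030 for PTTG1, −0.153 for AURKB, −0.099 for CCNB1 and −0.155 for PLK1. Without anti-GAA replicate 1 it was −0.172 for AURKB and −0.401 for PLK1, and with total counts −0.020 for PLK1. INCENP was at 0.262 without control replicate 1, 0.242 without anti-GAA replicate 2, 0.043 with the offsets and 0.060 with block and offsets, and CDCA8 at 0.055 without control replicate 1. At the other end of the fits without a library stood 0.509 for AURKB, 0.424 for CCNB1, 0.455 for PLK1, −0.294 for INCENP and −0.309 for CDCA8. The cause was not tested. A match of at least 18 of 21 bases, chosen after seeing the data, kept 3 members, against 4 with a perfect run of 12 bases and 5 over the gene body.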

Other observations

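Genes of G1 and S phase, taken for comparison, had a median log2 fold change of 0.138, with 7 of 27 tested below 0 and 0 past the threshold in edgeR without the replicate block. The median was 0.012 without anti-GAA replicate 1, 0.051 without control replicate 2 and 0.041 with scaling to total counts. CDK6, a kinase of G1, was at 43.8 and 44.7 CPM with the anti-GAA ASO and at 67.6 and 73.3 CPM in controls. The log2 fold change was −0.67 (SE 0.20), with an adjusted p of 0.95 in edgeR and of 0.0307 with the replicate block. It holds a GAA run of 11 bases.

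Of 8 CDK inhibitors, 2 had a fold change below 0, and 0 passed the test without the block. CDKN2B, the inhibitor p15 of the G1 kinases, was at 4.24 and 6.97 CPM with anti-GAA and at 10.1 and 12.7 CPM with control. Its log2 fold change was −1.01 (SE 0.34), with an adjusted p of 0.996 in edgeR and of 0.0322 with the block. CDKN1A, the p53 target p21, named after its values had been seen, was at 964 and 671 CPM against 837 and 1010 CPM, which overlap. Among the epithelial markers, KRT18 was at 224 and 308 CPM against 389 and 388 CPM, a log2 fold change of −0.54 (SE 0.22) with an adjusted p of 0.996 in edgeR, which ranged from −0.79 to −0.32 with a library left out.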
